A study of Mus musculus with 12 samples.

Results

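The genes described here are 50 mouse genes whose products build ribosomes in the nucleolus. They were chosen as every array probe whose transcript accession belongs to 1 of the 50 symbols. A probe was matched for 47 of the 50, all 47 passed the filter on dim probes, and Gnl3, Utp20 and Wdr43 had no matched probe. The array gave values for 25260 genes or unnamed transcripts in all. By role, the measured members were 4 RNA polymerase I subunits, 8 factors of ribosomal DNA transcription and the nucleolar scaffold, 4 core proteins of box C/D particles, 4 core proteins of box H/ACA particles, 13 factors of small subunit assembly and 14 factors of large subunit assembly.

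The livers came from C57BL/6 mice with floxed Myc alleles (MycF/F), with or without ERT2-Cre, a Cre recombinase fused to a modified estrogen receptor that is switched on by tamoxifen. Mice ate a control diet or a diet with 0.1% Wy-14643, an agonist of the nuclear receptor PPARA, for 2 days. The groups, 4 in all, were control-fed MycF/F (1 array of pooled liver), Wy-14643-fed MycF/F (3 arrays), control-fed MycF/F,ERT2-Cre (4 arrays) and Wy-14643-fed MycF/F,ERT2-Cre (4 arrays). The labels call the first genotype wild type and the second knockout. All groups carry the floxed alleles. The labels do not give the promoter that drives ERT2-Cre, any tamoxifen dosing, the sex and age of the mice, or which arrays are separate animals, so p-values measure only the spread between these arrays. Every array compared Cy5-labelled liver RNA with the same kind of Cy3-labelled pooled liver reference. Values below are log2(Cy5/Cy3), the level relative to that reference, and a difference is the difference of 2 group means on that scale.

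Ribosome production starts in the nucleolus, where RNA polymerase I transcribes the long precursor of the ribosomal RNAs. Box C/D particles methylate that precursor and box H/ACA particles turn some of its uridines into pseudouridine, each guided by small nucleolar RNAs. A large processome then folds and cuts the precursor into the small subunit, and a second series of factors matures the large subunit before both leave the nucleus. The transcription factor MYC is known as a regulator of many of these genes, and liver cells raise ribosome production when they grow. PPARA agonists enlarge the rodent liver and induce hepatocyte proliferation.

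MYC with its partner MAX binds the E-box CACGTG, which reads the same on both strands. This motif was searched in the 300 bases around each gene's start (250 upstream, 50 downstream; RefSeq, GRCm38.p6), where 44 of the 50 members had an entry. It lay in 8 of the 44 members (18.2%), against 8.09% of 27025 genes in the table. The share was 18.9% of 106 other ribosome assembly genes, a list read further below, and 9.52% of 63 cytosolic ribosomal protein genes. The 8 members were Imp4, Mybbp1a, Nle1, Nop2, Pes1, Tsr1, Utp20 and Wdr43, and the motif lay within the 250 upstream bases for Imp4 and Nop2 and after the start for the others. A motif match is a description of these letters, not a binding site. The stretches below carry the motif in capitals. Tsr1 is shown because it passed the test in a comparison, whereas Nop2, Mybbp1a and Imp4 were picked after their values were seen, the first pair for low values in Wy-14643-fed MycF/F,ERT2-Cre livers and Imp4 as a contrast with a small difference.
Nop2, chr6:125131796-125131855, plus strand: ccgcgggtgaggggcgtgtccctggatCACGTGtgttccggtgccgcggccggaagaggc
Mybbp1a, chr11:72441355-72441376, plus strand: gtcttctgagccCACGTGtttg
Tsr1, chr11:74898092-74898121, plus strand: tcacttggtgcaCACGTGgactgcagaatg
Imp4, chr1:34439681-34439740, plus strand: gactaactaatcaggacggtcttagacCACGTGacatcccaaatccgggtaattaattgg

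The member that passed the genotype test, Nop56, and the member with the smallest adjusted p in the Wy-14643 test, Mrto4, had no CACGTG in their 300 bases. Their 100 bases directly upstream of the start are given for contrast with the stretches above, with nothing in capitals.
Nop56, chr2:130274312-130274411, plus strand: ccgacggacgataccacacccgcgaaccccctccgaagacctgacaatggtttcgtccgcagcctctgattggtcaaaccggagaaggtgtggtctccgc
Mrto4, chr4:139352577-139352676, minus strand: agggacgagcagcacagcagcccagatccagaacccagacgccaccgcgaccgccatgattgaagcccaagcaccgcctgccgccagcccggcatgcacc
The members' 300-base promoters were 59.2% G or C at the median, against 53.3% over all genes of the table. A second motif, CCGGAAG or its reverse complement CTTCCGG, the core bound by ETS factors, was searched after the sequences had been seen. It lay in 15 of 44 members (34.1%), against 9.93% of all genes.

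The median spot's Cy5 signal was 2.64 to 4.82 times its local background, and between 64.6% and 77.1% of an array's spots passed as well above background. Of 10 hepatocyte markers, which check the labelled tissue, 8 were measured above the filter. The 12 arrays lay on 3 slides, and slide 1 had 5.47% to 8.35% outlier spots against 0.904% to 1.84% on slides 2 and 3. Values of spots called outliers were left out, so Npm1, Pa2g4, Bop1, Nhp2, Ncl, Nle1, Tsr1, Rcl1 and Nip7 lack 1 or more arrays. All 47 members were well above background on every array except Imp4, which was so on 2 of 4 arrays in each MycF/F,ERT2-Cre group.

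The targeted gene was read first, on its 3 probes, 1 of which has 10 spots. That 10-spot probe read 0.22 in the MycF/F control, 0.88, 0.52 and 0.88 in Wy-14643-fed MycF/F, -0.86, -0.22, -0.91 and -1.06 in control-fed MycF/F,ERT2-Cre and -1.21, -1.15, -0.96 and -1.03 in Wy-14643-fed MycF/F,ERT2-Cre. All MycF/F,ERT2-Cre arrays were below all MycF/F arrays. On Wy-14643 the genotype difference of Myc was -1.85 (SE 0.17, limma, adjusted p over probes 0.00386) on this probe, -1.82 on a second and -0.57 (adjusted p 0.270) on the third and brightest. The labels do not say where each probe lies relative to the floxed part of Myc.

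Across the 12 arrays the members' median level separated the Wy-14643-fed MycF/F livers from the rest. The median over the 47 members was -0.07 in the MycF/F control. It was 0.16, 0.22 and 0.19 in Wy-14643-fed MycF/F. It was -0.33, -0.06, -0.25 and -0.23 in control-fed MycF/F,ERT2-Cre, and -0.09, -0.13, -0.08 and -0.10 in Wy-14643-fed MycF/F,ERT2-Cre. The 3 Wy-14643-fed MycF/F arrays were thus above all 9 others, and the 2 MycF/F,ERT2-Cre groups overlapped. In whole liver, fewer cells of a type and less RNA per cell cannot be told apart.

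**Figure D1:**
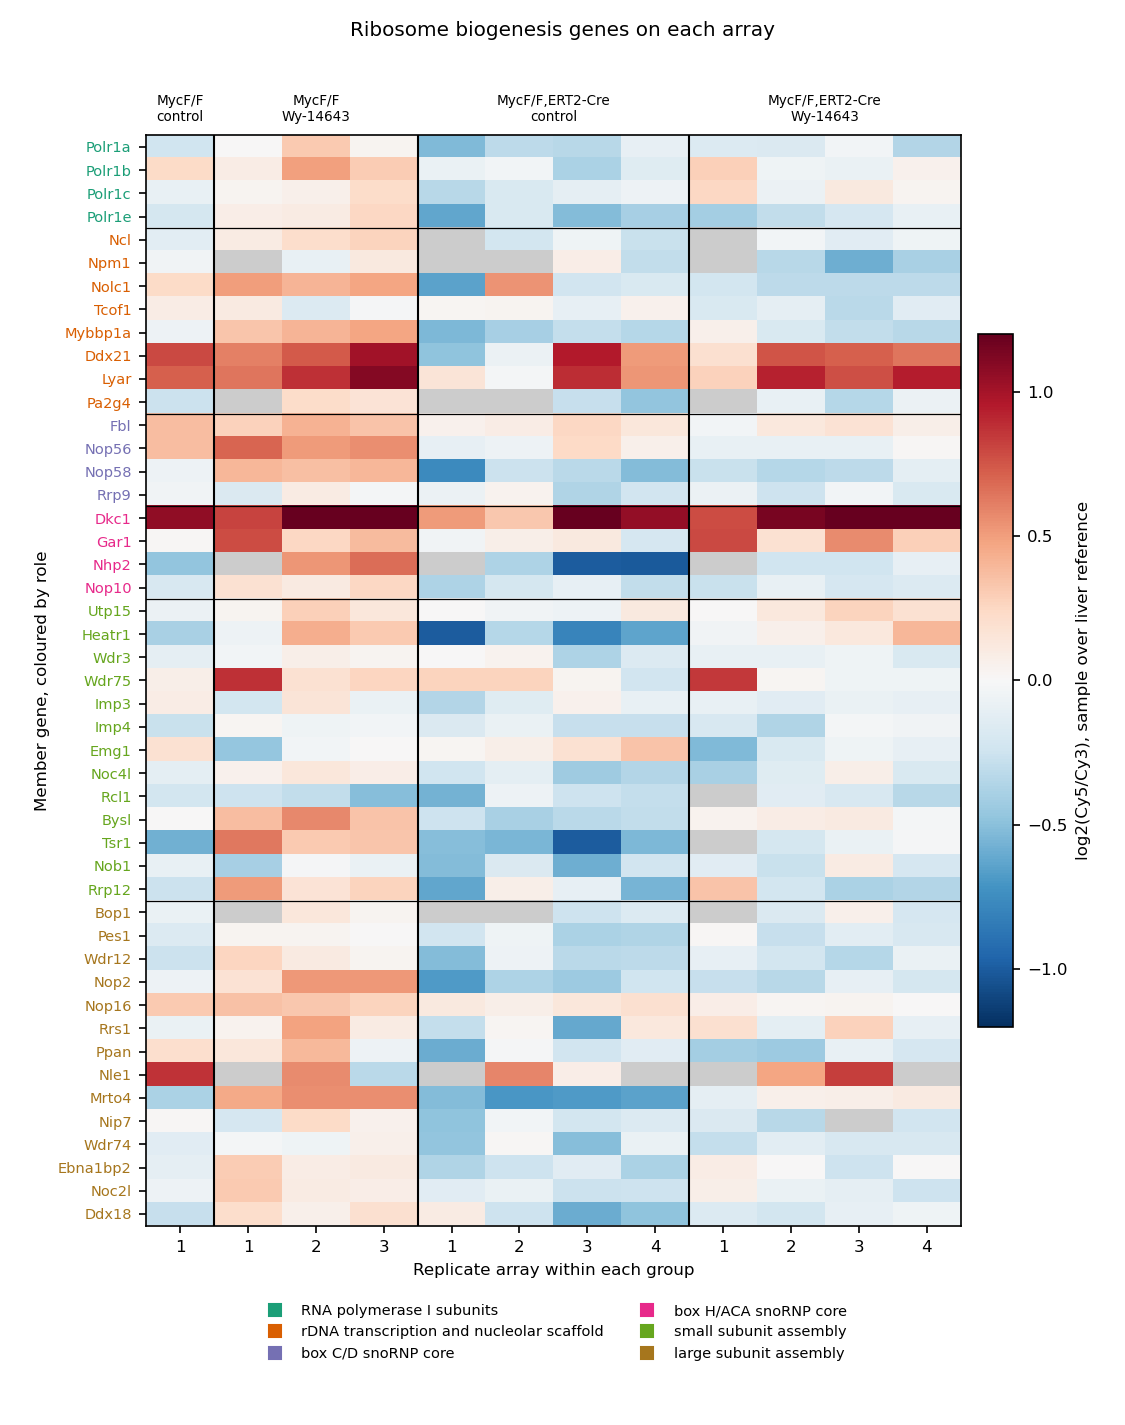
Heat map of log2(Cy5/Cy3) for the 47 measured members (rows, coloured by role) on the 12 arrays (columns, by group and replicate); colours are capped at the ends of the scale and grey marks values left out as outlier spots. Most rows are warmer in the 3 Wy-14643-fed MycF/F arrays, whose member medians are 0.16 to 0.22, than in the 4 Wy-14643-fed MycF/F,ERT2-Cre arrays, at -0.13 to -0.08.

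The first comparison sets Wy-14643 against control diet in MycF/F,ERT2-Cre livers (4 arrays against 4). Of the 47 members, 6 rose, meaning an adjusted p under 0.05 (a call): Mrto4, Heatr1, Bysl, Tsr1, Nhp2 and Gar1, by 1.29 to 1.77-fold. None fell. The 6 belonged to large subunit assembly (Mrto4), small subunit assembly (Heatr1, Bysl and Tsr1) and the box H/ACA core (Nhp2 and Gar1). In the main fit no call fell among the 4 RNA polymerase I subunits, 8 scaffold factors and 4 box C/D proteins. Lists this short cannot be told apart from the 9.1% of all genes called higher. Polr1e was called higher with the deposited log ratios and Mybbp1a with Cy5 signal alone, and a second Ncl probe is given below. In all, 38 members were above 0 and 9 below, with a median difference of 0.14 against 0.03 over all genes tested.

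The test was limma's moderated test over all 25162 genes measured in both groups, with Benjamini-Hochberg adjustment at 0.05. Over all genes it called 9.1% higher and 7.2% lower, so the members' 6 of 47 higher is close to the share over all genes, and their 0 of 47 lower stands beside 7.2%. At an unadjusted p under 0.05, 8 members were higher and 2 lower, against 16% and 12% of all genes. The groups did not overlap for 6 members that were higher and 3 that were lower, against 11.8% and 9.84% of all genes. The count fell from 6 to 3 without replicate 4 of Wy-14643-fed MycF/F,ERT2-Cre, and to 0 when arrays were median-centred in place of loess. The share of all genes called higher fell too, from 9.1% to 6.62% and 2.4%.

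Among the large subunit factors, Mrto4, a nucleolar protein related to the ribosomal stalk protein P0 that acts in late 60S maturation, was -0.52, -0.70, -0.68 and -0.64 on control diet and -0.11, 0.06, 0.07 and 0.11 on Wy-14643 in MycF/F,ERT2-Cre. The groups were well apart. The difference was 0.67 (SE 0.08, limma adjusted p 8.2e-05), or 1.59-fold. Mrto4 lost its call under 2 of the 14 other processing choices that could change the fit, median centring and Cy5 signal alone, and in 0 of 11 fits that left out 1 array. With Cy5 signal alone, which drops the reference channel, its difference was 0.09 (limma adjusted p 0.852).

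Of the small subunit factors, Heatr1, the mouse UTP10 of the processome that also aids transcription by RNA polymerase I, was -1.00, -0.34, -0.79 and -0.63 on control diet. It was -0.04, 0.06, 0.13 and 0.40 on Wy-14643, above every control array. Its difference of 0.83 (SE 0.15, limma adjusted p 0.00243) was the largest among the members, but its other probes gave differences of 0.22 and -0.15, and the mean over its probes gave 0.30 (limma adjusted p 0.0597). Bysl, needed for late cleavage of the 18S rRNA precursor, was -0.25, -0.39, -0.32 and -0.30 on control diet against 0.04, 0.09, 0.11 and -0.02 on Wy-14643. The difference of Bysl was 0.37 (SE 0.08, limma adjusted p 0.00528), with 0.48 and 0.11 on its other probes.

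Tsr1, a GTPase-like factor that binds late 40S particles, was -0.51, -0.55, -1.00 and -0.54 on control diet and -0.21, -0.08 and -0.01 on the 3 usable Wy-14643 arrays. The lowest Wy-14643 array was above the highest control array. The difference of Tsr1 was 0.55 (SE 0.13, limma adjusted p 0.0139) on the probe used and 0.03 on its other probe, and without replicate 4 on Wy-14643 its adjusted p was 0.0613. Emg1, a methyltransferase of 18S rRNA, went the other way without passing the test: 0.02, 0.07, 0.18 and 0.34 on control diet against -0.53, -0.18, -0.05 and -0.10 on Wy-14643. The groups of Emg1 did not overlap, and the difference was -0.37 (SE 0.13, limma adjusted p 0.0812). It passed with the slide as a block (-0.47, limma adjusted p 0.00125) or the replicate number as a block (limma adjusted p 0.0148). It also passed with the deposited log ratios (0.0190), without slide 1 (0.0196) and without replicate 1 of Wy-14643-fed MycF/F (0.0482), and not under the other choices run.

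In the box H/ACA core, Nhp2, a protein that binds the guide RNA, was -0.37, -1.00 and -1.01 on the 3 usable control arrays and -0.24, -0.24 and -0.10 on the 3 usable Wy-14643 arrays. The difference of Nhp2 was 0.60 (SE 0.17, limma adjusted p 0.0357). That call was lost under 5 of 14 other processing choices and in 7 of 11 fits without 1 array: those without replicate 2 or 3 of Wy-14643-fed MycF/F, replicate 3 or 4 of control-fed MycF/F,ERT2-Cre or replicate 2, 3 or 4 of Wy-14643-fed MycF/F,ERT2-Cre (limma adjusted p up to 0.117). Gar1, another protein of the same core, was -0.04, 0.07, 0.12 and -0.20 on control diet and 0.79, 0.18, 0.57 and 0.29 on Wy-14643. Both genes had every usable Wy-14643 array above every usable control array. The difference of Gar1 was 0.47 (SE 0.15, limma adjusted p 0.0465), and this call was lost under 8 of 14 other processing choices and in 8 of 11 fits without 1 array (limma adjusted p up to 0.120): those without replicate 3 of Wy-14643-fed MycF/F, any array of control-fed MycF/F,ERT2-Cre or replicate 1, 3 or 4 of Wy-14643-fed MycF/F,ERT2-Cre. Dkc1, the pseudouridine synthase of the same particle, was 0.51, 0.32, 1.26 and 1.05 on control diet and 0.78, 1.14, 1.30 and 1.49 on Wy-14643. These groups overlapped, and the difference of Dkc1 was 0.40 (95% interval -0.07 to 0.87). Nop10, the fourth core protein, differed by 0.06 (95% interval -0.11 to 0.24).

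The abundant nucleolar proteins gave no call in this comparison. Npm1, the histone chaperone nucleophosmin, was 0.08 and -0.30 on the 2 usable control arrays and -0.33, -0.59 and -0.39 on the 3 usable Wy-14643 arrays, a difference of -0.33 (limma adjusted p 0.194) that was -0.14 without control replicate 3 and -0.52 without control replicate 4. Tcof1, the treacle protein that recruits RNA polymerase I, was 0.02, 0.03, -0.10 and 0.05 against -0.18, -0.11, -0.32 and -0.14, a difference of -0.18 (limma adjusted p 0.164). The groups of Npm1 and Tcof1 did not overlap, but their differences did not pass the test. Ncl, the nucleolin that binds precursor rRNA, was -0.22, -0.05 and -0.27 on 3 usable control arrays and -0.03, -0.14 and -0.05 on 3 usable Wy-14643 arrays, a difference of 0.10 (95% interval -0.11 to 0.31); another Ncl probe differed by 0.41 (limma adjusted p over probes 0.0156). Pes1, of the PeBoW complex, likewise differed by 0.11 on the probe used and by 0.49 on its other probe (limma adjusted p over probes 0.0310). Fbl, the methyltransferase fibrillarin, was 0.05, 0.09, 0.25 and 0.14 on control diet and -0.03, 0.13, 0.17 and 0.07 on Wy-14643, a difference of -0.05 (95% interval -0.22 to 0.11).

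The second comparison shares the 4 Wy-14643-fed MycF/F,ERT2-Cre arrays with the first. It sets MycF/F,ERT2-Cre livers against MycF/F livers, both on Wy-14643 (4 arrays against 3). Of the 47 members, 43 had a fitted difference below 0 and 4 above, whereas 43.3% of all genes tested were below 0. The members' median difference was -0.25, against 0.02 over all genes. Only Nop56 fell past the adjusted threshold, by 0.65 on the log2 scale, and no member rose. All 4 RNA polymerase I subunits, all 8 scaffold factors and all 4 box C/D proteins had differences below 0, with medians of -0.26, -0.32 and -0.46.

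The limma test, adjusted over 25169 genes, called 0.0834% of all genes lower and 0.0199% higher, so few genes of any kind passed. At an unadjusted p under 0.05, 22 members were lower and 0 higher, against 4.56% and 3.74% of all genes. Every usable MycF/F,ERT2-Cre array was below every usable MycF/F array for 23 members and above for 0, against 6.42% and 7.25% of all genes. Of the 23, Ncl, Npm1, Pa2g4, Nhp2 and Tsr1 lacked values on slide 1, and groups separate more easily with fewer arrays. Same-numbered arrays of these groups lie on the same slide, and their deviations correlated at 0.42, 0.15 and 0.14 for replicates 1, 2 and 3. A pair with different numbers on different slides reached 0.18 (MycF/F replicate 2 with MycF/F,ERT2-Cre replicate 3). With the replicate number as a block 0 members and 0% of all genes were called. With the slide as a block 2 members (Nop56 and Nop2) and 0.107% of all genes were called lower. Leaving out slide 1 gave 7 calls, all lower (Nolc1, Mybbp1a, Nop56, Nop58, Nhp2, Nop2 and Mrto4), while 0.303% of all genes were called lower. Within slides 1, 2 and 3 the members' median difference was -0.24, -0.30 and -0.24.

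**Figure D2:**
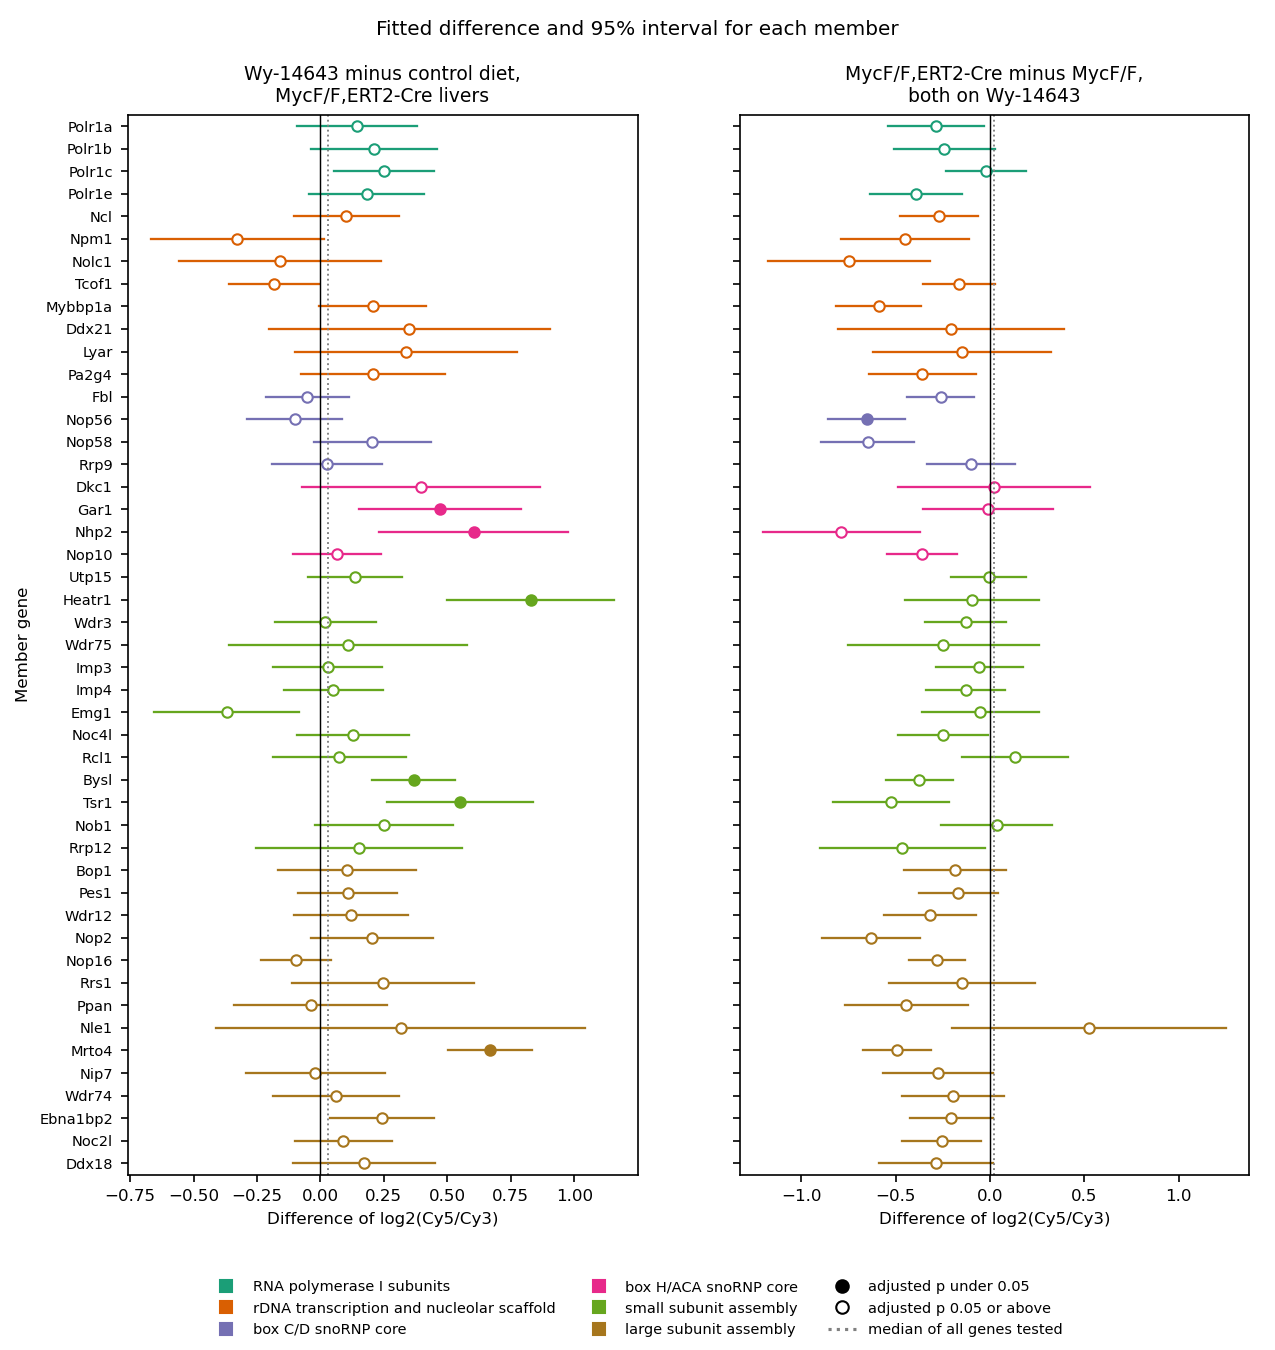
Fitted difference of log2(Cy5/Cy3) (points) and its 95% interval (lines) for each of the 47 members, coloured by role; filled points have a limma adjusted p under 0.05 and the dotted line is the median of all genes tested. In the left panel (Wy-14643 minus control diet) 6 points are filled, all above 0; in the right panel (MycF/F,ERT2-Cre minus MycF/F on Wy-14643) 43 of 47 points are below 0 and 1 is filled, Nop56.

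The box C/D core held the member that passed. Nop56, a scaffold of the box C/D particle, was 0.70, 0.51 and 0.56 in Wy-14643-fed MycF/F and -0.09, -0.09, -0.09 and 0.01 in Wy-14643-fed MycF/F,ERT2-Cre. In the same order, control-fed MycF/F,ERT2-Cre read -0.10, -0.06, 0.24 and 0.06, and the MycF/F control read 0.37. The 3 Wy-14643-fed MycF/F arrays were above all the others. The genotype difference of Nop56 was -0.65 (SE 0.09, limma adjusted p 0.0347), or 1.57-fold lower, and with each of 7 arrays left out in turn (every array of both groups) its adjusted p rose to between 0.0625 and 0.208.

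Nop58, which pairs with Nop56 in the particle, was 0.40, 0.36 and 0.40 in Wy-14643-fed MycF/F and -0.27, -0.34, -0.31 and -0.12 in Wy-14643-fed MycF/F,ERT2-Cre. Control-diet values of Nop58 were -0.06 in MycF/F and -0.76, -0.26, -0.32 and -0.52 in MycF/F,ERT2-Cre. The groups on Wy-14643 were far apart beside the spread within them, and the difference was -0.65 (SE 0.11, limma adjusted p 0.0643). Fbl was 0.28, 0.42 and 0.34 against -0.03, 0.13, 0.17 and 0.07, with no overlap, a difference of -0.26 (limma adjusted p 0.280). Rrp9, the protein that binds the U3 box C/D particle, differed by -0.10 (95% interval -0.33 to 0.13).

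Of the scaffold and transcription factors, Mybbp1a, a nucleolar protein first known as a MYB partner, was 0.33, 0.41 and 0.47 in Wy-14643-fed MycF/F and 0.06, -0.18, -0.30 and -0.33 in Wy-14643-fed MycF/F,ERT2-Cre. On control diet Mybbp1a was -0.06 in MycF/F and -0.54, -0.40, -0.29 and -0.34 in MycF/F,ERT2-Cre. The 3 Wy-14643-fed MycF/F arrays were above all the others, and the genotype difference was -0.59 (SE 0.10, limma adjusted p 0.0643). Nolc1, a phosphoprotein that links the polymerase with snoRNPs, was 0.50, 0.41 and 0.47 against -0.22, -0.31, -0.31 and -0.31. Its MycF/F,ERT2-Cre control arrays were widely spread, at -0.64, 0.54, -0.23 and -0.18. The genotype difference of Nolc1 was -0.75 (SE 0.20, limma adjusted p 0.202), and its other probe gave -0.27.

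Ncl was 0.10, 0.21 and 0.27 against -0.03, -0.14 and -0.05, and its 4 probes gave differences of -0.27, -0.24, -0.13 and -0.02. Npm1 was -0.09 and 0.12 on the 2 usable Wy-14643-fed MycF/F arrays, above all 3 MycF/F,ERT2-Cre values given earlier, with a difference of -0.45 (limma adjusted p 0.387) and -0.44 on its other probe. Neither gene passed the test. Pa2g4, an RNA-binding protein of growing cells, differed by -0.36, Tcof1 by -0.17, the RNA helicase Ddx21 by -0.21 and the nucleolar protein Lyar by -0.15, none past the adjusted threshold. Ddx21 and Lyar varied widely between arrays, with MycF/F,ERT2-Cre control values from -0.48 to 0.95 for Ddx21 and from -0.02 to 0.89 for Lyar.

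The subunits of RNA polymerase I had differences between -0.39 and -0.02. Polr1e, the subunit that aids initiation, was 0.08, 0.10 and 0.25 in Wy-14643-fed MycF/F and -0.41, -0.30, -0.20 and -0.09 in Wy-14643-fed MycF/F,ERT2-Cre. The groups did not overlap, and the difference of Polr1e was -0.39 (SE 0.11, limma adjusted p 0.241). Polr1a, the largest catalytic subunit, differed by -0.29 with no overlap, Polr1b by -0.24 and Polr1c by -0.02 with overlap; none of these passed.

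In the box H/ACA core the genes differed among themselves. Nhp2 was 0.53 and 0.67 on the 2 usable Wy-14643-fed MycF/F arrays, above its MycF/F,ERT2-Cre values of -0.24, -0.24 and -0.10, and the genotype difference of -0.79 (SE 0.18, limma adjusted p 0.191) was the largest in size among the members. Nop10 was 0.18, 0.11 and 0.25 against -0.27, -0.09, -0.20 and -0.16, a difference of -0.36 (limma adjusted p 0.168). Gar1 was 0.78, 0.25 and 0.38 against 0.79, 0.18, 0.57 and 0.29, so its groups overlapped throughout, with a difference of -0.01 (95% interval -0.36 to 0.33). Dkc1 was 0.81, 1.38 and 1.30 against 0.78, 1.14, 1.30 and 1.49, a difference of 0.02 on the brightest probe and -0.50 on its other probe.

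Among small subunit factors, 11 of 13 were below 0, with a median of -0.13. Tsr1 was 0.63, 0.31 and 0.33 in Wy-14643-fed MycF/F, above the 3 MycF/F,ERT2-Cre values given earlier, a difference of -0.52 (limma adjusted p 0.212) and -0.54 on its other probe. Bysl was 0.37, 0.58 and 0.34, also above all 4 MycF/F,ERT2-Cre arrays, a difference of -0.38 (limma adjusted p 0.123). Heatr1 was -0.06, 0.44 and 0.31, which overlapped its MycF/F,ERT2-Cre values, a difference of -0.10 (95% interval -0.45 to 0.26). Tsr1 and Bysl thus had separate groups in this comparison, and Heatr1 did not.

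Rrp12, an export factor of the 40S precursor, differed by -0.46 (95% interval -0.90 to -0.03, limma adjusted p 0.555) with overlapping groups. The small subunit factors with the highest differences lay near 0. Rcl1, an endonuclease of 18S rRNA processing, was -0.25, -0.30 and -0.51 against -0.14, -0.19 and -0.33 on 3 usable arrays, a difference of 0.13. Nob1, the nuclease that makes the 3′ end of 18S rRNA, was -0.40, -0.01 and -0.08 against -0.14, -0.27, 0.10 and -0.20, a difference of 0.04. Utp15, a processome protein, was 0.03, 0.29 and 0.14 against 0.00, 0.13, 0.27 and 0.18, a difference of -0.01. All of these groups overlapped, and the sign of each changed under at least 1 alternative. Wdr75, a further processome protein, read 0.88 and 0.85 on the slide 1 arrays of the 2 Wy-14643 groups and -0.05 to 0.26 on the other arrays of those groups.

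Of the 14 large subunit factors, 13 were below 0, with a median of -0.27. The groups did not overlap for 8 of them, all lower: Mrto4, Nop2, Nop16, Ppan, Wdr12, Wdr74, Noc2l and Ddx18. Of all genes tested, 6.42% were separated in that direction. Nop2, a methyltransferase of 28S rRNA whose E-box stretch is printed above, was 0.17, 0.52 and 0.52 in Wy-14643-fed MycF/F and -0.28, -0.33, -0.10 and -0.21 in Wy-14643-fed MycF/F,ERT2-Cre. On control diet Nop2 was -0.06 in MycF/F and -0.68, -0.37, -0.44 and -0.24 in MycF/F,ERT2-Cre. The groups on Wy-14643 did not overlap, and the difference was -0.63 (SE 0.12, limma adjusted p 0.0876). Mrto4 was 0.45, 0.56 and 0.56 in Wy-14643-fed MycF/F, above all 4 MycF/F,ERT2-Cre arrays, a difference of -0.49 (SE 0.08, limma adjusted p 0.0512).

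The proteins of the PeBoW complex, which matures the 60S precursor, had differences of -0.17 (Pes1), -0.19 (Bop1) and -0.32 (Wdr12), and a second Pes1 probe gave -0.38. Ppan, a factor of 60S precursor processing, differed by -0.44 and Nop16, a nucleolar protein of 60S assembly, by -0.28 on the probe used and 0.06 on its other probe. None passed the test. Nle1, which removes factors from the 60S precursor with the ATPase Mdn1, was the exception in direction, at 0.57 and -0.32 on 2 usable MycF/F arrays and 0.47 and 0.83 on 2 usable MycF/F,ERT2-Cre arrays. The values of Nle1 overlapped, with a difference of 0.53 (95% interval -0.20 to 1.25) that was 0.97 without MycF/F replicate 2 and 0.08 without MycF/F replicate 3.

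**Figure D3:**
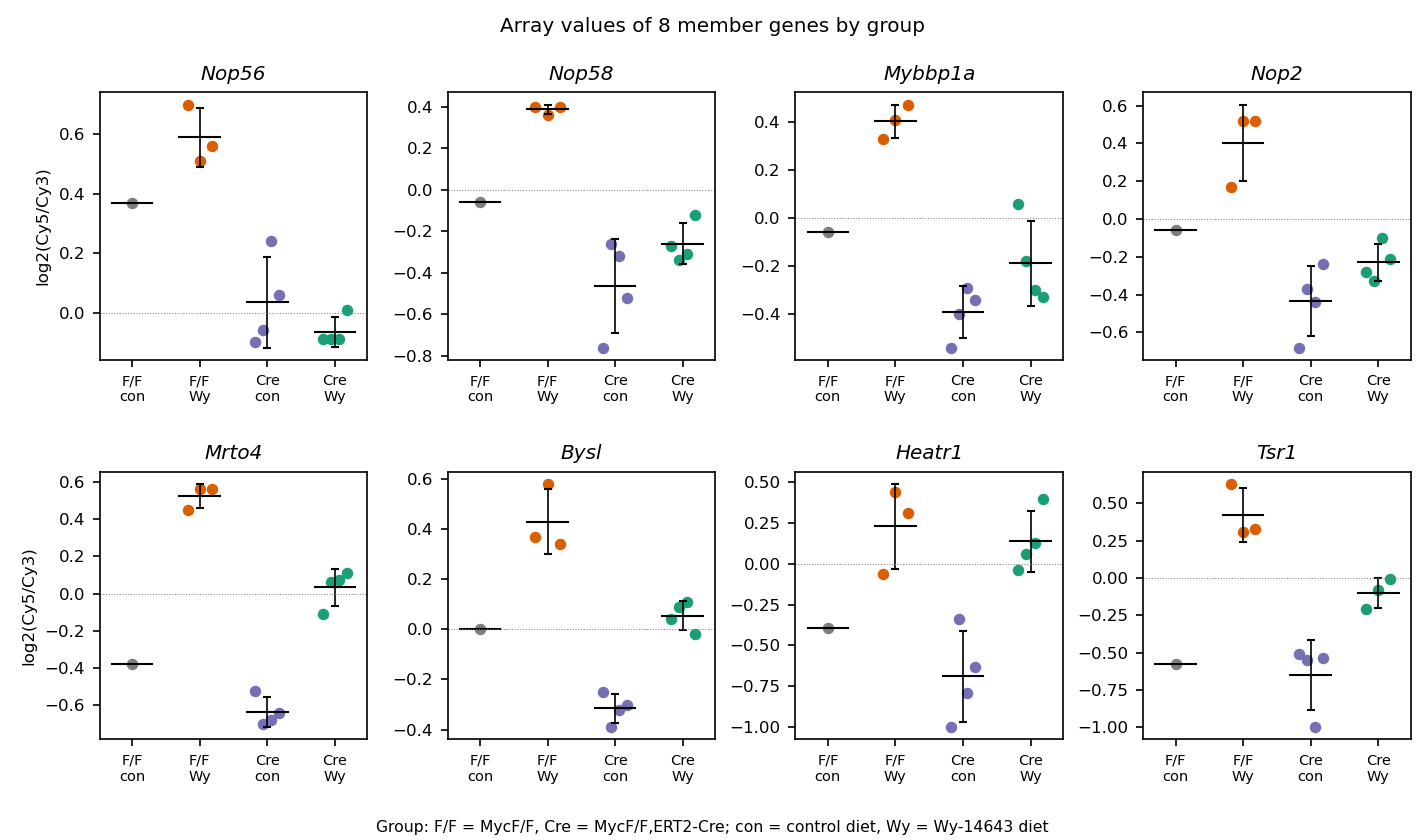
log2(Cy5/Cy3) of 8 members on each array (points) by group, with the group mean (bar) and SD (whiskers; none for the single MycF/F control array). For Nop56, Nop58, Mybbp1a and Nop2 the 3 Wy-14643-fed MycF/F arrays stand above all 4 Wy-14643-fed MycF/F,ERT2-Cre arrays; for Mrto4, Bysl, Heatr1 and Tsr1 the Wy-14643-fed MycF/F,ERT2-Cre arrays stand above those on control diet.

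In the genotype comparison on Wy-14643, the 6 measured members with CACGTG had differences from -0.63 to 0.53 with a median of -0.35, and the 35 measured members with a promoter entry but no CACGTG had a median of -0.25. Nop56, Nop58 and Nhp2 were among those without it. Imp4, with an upstream E-box, differed by -0.13.

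The other comparisons rest on the single pooled MycF/F control array, which is assumed to vary like the other groups, so their p-values leave out its own spread. They share arrays with the comparisons above. In MycF/F livers (3 arrays against 1), the differences from that 1 array past the threshold were those of Mrto4 (-0.38 to a mean of 0.52; difference 0.90, limma adjusted p 0.00089), Tsr1 (-0.58 to a mean of 0.42; difference 1.00, adjusted p 0.0104) and Nhp2 (-0.47 to a mean of 0.60; difference 1.07, adjusted p 0.0344), and none was negative. Nhp2 lost this call with the replicate number as a block (0.97, limma adjusted p 0.115) and in 5 of 11 fits without 1 array, those without replicate 2 or 3 of Wy-14643-fed MycF/F or replicate 2, 3 or 4 of Wy-14643-fed MycF/F,ERT2-Cre (adjusted p up to 0.132). Of 13 other processing choices, Nhp2 lost its call under 4, Tsr1 under 4 and Mrto4 under 2. Median centring and Cy5 signal alone were among these for each gene. The others were the deposited log ratios and outlier spots kept for Tsr1, and no filter on dim probes and the replicate block for Nhp2. The test called 3.23% of all genes higher and 3.24% lower. At an unadjusted p under 0.05, 12 members were higher and 0 lower, against 8.53% and 8.92% of all genes, and the members' median was 0.22 with 37 of 47 above 0.

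Between the genotypes on control diet (4 arrays against 1), limma called 0 members and 0% of all genes. The members' median difference was -0.13, with 44 of 47 below 0 against 56.6% of all genes. At an unadjusted p under 0.05, 3 members were lower, against 1.23% of all genes. The 3 were Nop58 (-0.40, 95% interval -0.77 to -0.04), Nop56 (-0.33, 95% interval -0.63 to -0.03) and Bysl (-0.32, 95% interval -0.58 to -0.05). The difference between the 2 genotypes' Wy-14643 effects was tested directly as an interaction, and limma called 0 members and 0% of all genes. At an unadjusted p under 0.05 it was 0 members, against 2.16% of all genes. The members' median interaction estimate was -0.08 against 0.04 over all genes, with 35 of 47 members below 0 and 12 above. Over all genes, 40.9% were below 0. The estimate was -0.32 (95% interval -0.68 to 0.04) for Nop56 and -0.45 (95% interval -0.97 to 0.07) for Tsr1. It was 0.01 for Gar1, 0.20 for Heatr1 and 1.06 for Nle1, the highest of the members.

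The rest of the ribosome assembly pathway was read from a list of 129 other genes, of which 115 were measured. Wy-14643 raised 22 of the 115 in MycF/F,ERT2-Cre livers and lowered none, with 37 higher and 4 lower at an unadjusted p under 0.05, and a median of 0.12. Over all genes tested, 9.1% were called higher and 7.2% lower, and the unadjusted shares were 16% and 12%. The largest rises were Fcf1, a nuclease of 18S rRNA processing (1.00, adjusted p 1.6e-05), Las1l, which cuts the second internal spacer (0.78, adjusted p 0.000222), the RNA polymerase I subunit gene Twistnb (0.66, adjusted p 7.3e-05) and the exosome gene Exosc4 (0.51, adjusted p 0.000367), all by limma. Fcf1 was -0.72, -0.67, -0.74 and -0.97 on control diet and 0.25, 0.39, 0.04 and 0.21 on Wy-14643, so its groups were far apart.

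Between the genotypes on Wy-14643, 96 of the 115 were below 0 with a median of -0.13. At an unadjusted p under 0.05, 32 were lower and 0 higher. The groups did not overlap for 39 that were lower and 1 that was higher. Rrp15 fell past the threshold, from 0.42, 0.30 and 0.48 in MycF/F to -0.06, -0.21, -0.27 and -0.16 in MycF/F,ERT2-Cre (difference -0.58, SE 0.09, limma adjusted p 0.0468). The 79 cytosolic ribosomal protein genes had a lower median than the members, at -0.38 with 77 of 79 below 0 and 4 called lower. At an unadjusted p under 0.05, 66 of the 79 were lower, against 22 of the 47 members. The groups did not overlap, lower, for 66 of the 79 and 23 of the 47. Over all genes, 43.3% were below 0, 0.0834% were called lower and 4.56% were lower at the unadjusted threshold. The groups did not overlap, lower, for 6.42% of all genes. The 76 mitochondrial ribosomal protein genes had a median of -0.12 with 0 called by limma and 12 lower at an unadjusted p under 0.05. In the Wy-14643 comparison, 44 of those 76 rose, against 9.1% of all genes.

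**Figure D4:**
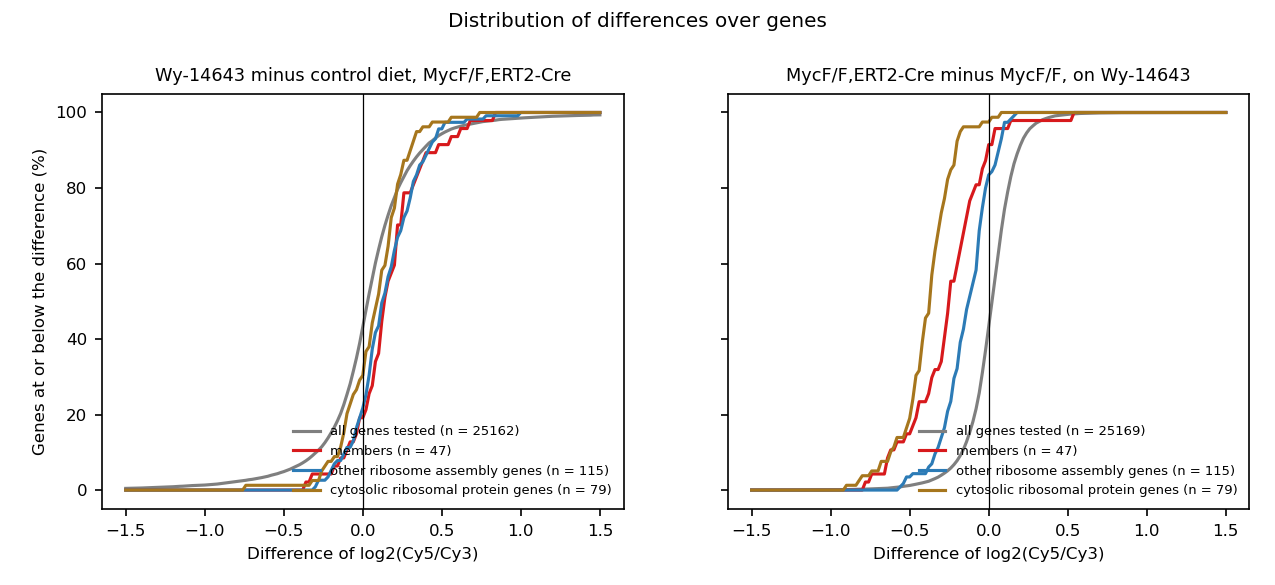
Cumulative share of genes (vertical axis, %) at or below each difference of log2(Cy5/Cy3) (horizontal axis) for the members, the other ribosome assembly genes, the cytosolic ribosomal protein genes and all genes tested. In the right panel (MycF/F,ERT2-Cre minus MycF/F on Wy-14643) the 3 lists lie to the left of all genes, with medians of -0.25, -0.13 and -0.38 against 0.02; in the left panel (Wy-14643 minus control diet) the members' median is 0.14 against 0.03.

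Some lists of cell state and cell type markers leaned to 1 side in the genotype comparison on Wy-14643, though limma called no marker of any list. Of 24 proliferating cell markers, 24 were below 0, with a median difference of -0.56, and limma called 0 (15 lower at an unadjusted p under 0.05). Their median level was 0.51, 0.08 and 0.08 in Wy-14643-fed MycF/F and -0.89, -0.35, -0.33 and -0.12 in Wy-14643-fed MycF/F,ERT2-Cre, with no overlap. On control diet it was 0.23 in MycF/F and 0.54, 0.03, -0.12 and -0.01 in MycF/F,ERT2-Cre. Unlike the members, these markers thus did not set the Wy-14643-fed MycF/F arrays above all others. Of 14 Kupffer cell and macrophage markers, 13 were above 0, with a median difference of 0.37 and median levels of -0.73 to -0.57 in MycF/F against -0.37 to -0.20 in MycF/F,ERT2-Cre; limma called 0 (8 higher at an unadjusted p under 0.05). Of 15 endothelial markers, 13 were above 0, with a median difference of 0.18, 0 called by limma and 4 higher at an unadjusted p under 0.05. Over all genes tested, 56.7% were above 0, and 3.74% were higher and 4.56% lower at that unadjusted threshold. Hepatocyte markers had a median difference of 0.07, and the medians of the stellate, cholangiocyte, lymphocyte, neutrophil and erythroid marker lists lay between -0.05 and 0.05. The part of these in the members' differences was not tested. In the Wy-14643 comparison within MycF/F,ERT2-Cre, 6 of 24 proliferating cell markers, 7 of 14 Kupffer cell markers, 4 of 8 hepatocyte markers, 5 of 15 stellate cell, 3 of 15 endothelial, 3 of 14 lymphocyte, 2 of 5 erythroid and 1 of 10 cholangiocyte markers fell, 1 cholangiocyte marker rose, and 11 of 12 PPARA target genes rose. Of all genes tested there, 7.2% fell and 9.1% rose.

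**Figure D5:**
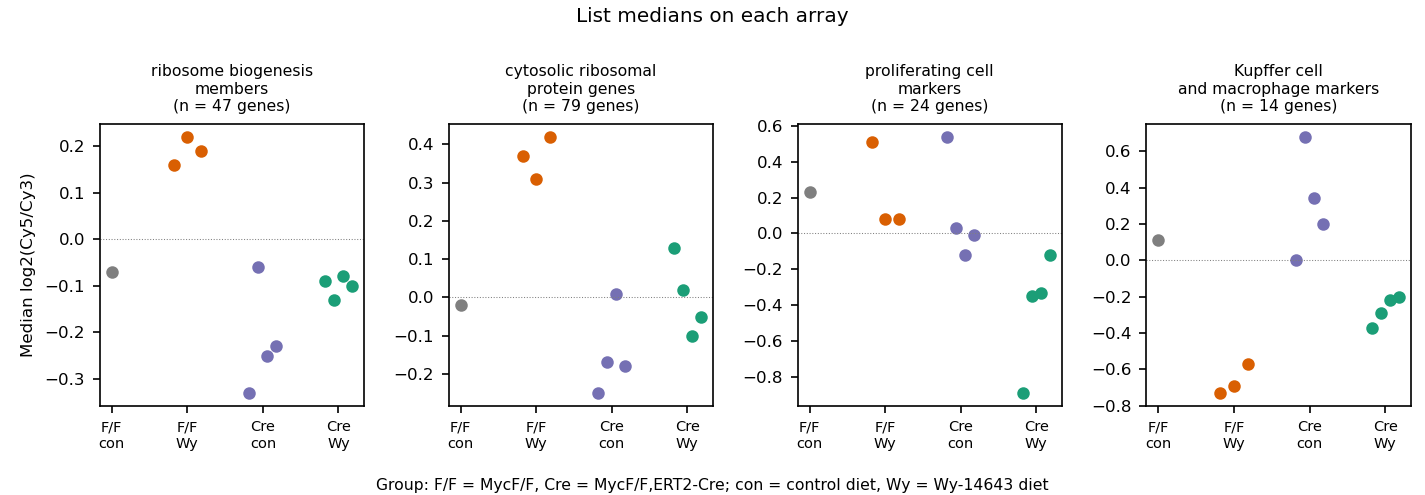
Median log2(Cy5/Cy3) of 4 gene lists on each array (points) by group. The members and the cytosolic ribosomal protein genes are highest in the 3 Wy-14643-fed MycF/F arrays (0.16 to 0.22 for the members). The proliferating cell markers are at -0.89 to -0.12 in the 4 Wy-14643-fed MycF/F,ERT2-Cre arrays against 0.08 to 0.51 in the 3 Wy-14643-fed MycF/F arrays. On control diet they are at 0.23 in MycF/F and -0.12 to 0.54 in MycF/F,ERT2-Cre. The Kupffer cell and macrophage markers are lowest in the 3 Wy-14643-fed MycF/F arrays (-0.73 to -0.57).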

How the data were processed

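Total RNA from whole liver was amplified and hybridised to 12 2-colour Agilent arrays. Per the file headers, the deposited intensity values are median spot and local background signals from Agilent Feature Extraction 11.0.1.1 (named also in the submitters' processing notes), and the deposited log10 ratios are Cy5 over Cy3 after that software's own background and dye correction. Genes were named by matching 41174 probes' transcript accessions to RefSeq, where 23374 had 1 symbol. From the intensities, background was corrected with normexp (offset 50), each array was loess-normalised, outlier spots were left out and spots of a probe were averaged. Probes passing as well above background in Cy5 on 3 or more of the 12 arrays stayed in (31846 probes), and a gene was read by its brightest kept probe. One limma 3.58.1 fit (R 4.3.3) with 4 group means (8 residual degrees of freedom) gave 5 two-sided comparisons, each adjusted over all genes at 0.05. The fit was tested on simulated data. Array number limits the precision.

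The members and lists were chosen with earlier results of these data known. Per-array values were given for members called in any comparison, the 5 highest and 5 lowest in each of the first 2 comparisons and Ncl, Npm1, Fbl, Nop56 and Nop58, with others named by role. Of the other assembly genes, up to 4 called in each direction in those comparisons were named. Between the 2 Wy-14643 groups, deviations of same-numbered arrays, which share a slide, correlated at 0.14 to 0.42 over 3 pairs. Between the MycF/F,ERT2-Cre groups the range was -0.07 to 0.32 over 4 pairs. Of those, replicates 1 and 4 share a slide (0.32 and 0.09), whereas replicates 2 and 3 do not (-0.07 and -0.02). Pairs of these groups with different numbers on 1 slide gave 0.13, 0.26 and 0.27. Arrays sharing a slide thus deviated together in the first comparison as well. The arrays were designed on an older build, so no gene coordinates beyond the promoter table's are given.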

Additional observations from a re-analysis of the deposited data

Results flagged for a closer look

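In 4 of 79 groups of 4 arrays, 1 array's value for a member stood apart from the others by Dixon's test, and chance flags about 1 in 20 groups. Wdr75 was 0.85 on replicate 1 of Wy-14643-fed MycF/F,ERT2-Cre and -0.05 to 0.02 on the others. Tsr1 was -1.00 on replicate 3 of control-fed MycF/F,ERT2-Cre and -0.55 to -0.51 on the others. Nolc1 was -0.22 on replicate 1 of Wy-14643-fed MycF/F,ERT2-Cre, where the others were all -0.31. Nop56 was 0.01 on replicate 4 of the same group, where the others were all -0.09.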

How the results depend on the processing

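The members' median kept its sign in every comparison under all alternatives run (0.09 to 0.18 for Wy-14643 in MycF/F,ERT2-Cre and -0.30 to -0.20 for genotype on Wy-14643), but the counts of calls changed. For Wy-14643 in MycF/F,ERT2-Cre, 6 calls became 0 with median centring in place of loess and 3 with Cy5 signal alone (Mybbp1a, Heatr1 and Tsr1). Without 1 array there were 3 to 7 calls. The 7, without replicate 1 of Wy-14643-fed MycF/F, were 6 higher and 1 lower (Emg1), where 7.06% of all genes were called lower. The share of all genes called higher was 9.1% in the main fit, 2.4% with median centring and 2.47% with Cy5 signal alone. Without 1 array this share was 6.62% to 9.13%. For genotype on Wy-14643, 1 call became 0 with the deposited log ratios, median centring, Cy5 signal alone, an offset of 16 or the replicate block; 2 with no filter on dim probes, with outlier spots kept, with the mean over probes or with the slide block; 4 with only the 2 groups compared; 7 without slide 1; and 10 with array weights, where 0.846% of all genes were called lower. The settings with 0 calls also called 0% of all genes. Those with 2 calls called 0.0754% to 0.115% of all genes lower, against 0.0834% in the main fit. The share was 0.159% with 4 calls and 0.303% with 7. Without 1 array the member count was 0 to 3: 0 without any MycF/F Wy-14643 array or without replicate 2, 3 or 4 of Wy-14643-fed MycF/F,ERT2-Cre, 3 without replicate 1 and 2 without replicate 2 of control-fed MycF/F,ERT2-Cre. The fits with 0 calls again called 0% of all genes, and those with 3 and 2 called 0.115% and 0.0715% lower. For Wy-14643 in MycF/F, 3 calls became 0 with median centring or Cy5 signal alone, 6 without slide 1 and 5 with array weights. Of all genes, 3.23% were called higher in the main fit, 0.466% with median centring and 0.61% with Cy5 signal alone. That share was 5.72% without slide 1 and 5% with array weights. The interaction median of -0.08 became -0.15 with the deposited log ratios and -0.15 within slide 2, and ranged from -0.13 to -0.07 without 1 array (-0.13 without replicate 3 of control-fed MycF/F,ERT2-Cre, -0.12 without replicate 3 of Wy-14643-fed MycF/F,ERT2-Cre). Quantile scaling of average intensities leaves log ratios as they are and returned the same fit, as did leaving out the single MycF/F control array in the first 2 comparisons. The replicate block changed no other count by over 1.5 times. The cause of these changes was not tested, beyond the fewer arrays in some fits.

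Some differences changed sign, 1 of them (Nle1, 0.53) the highest in the genotype comparison. For Wy-14643 in MycF/F,ERT2-Cre, Cy5 signal alone gave -0.065 for Ncl, 0.24 for Nolc1 and -0.17 for Nop58, median centring gave 0.08 for Npm1 and 0.11 for Fbl, and Nolc1 was 0.00057 with the mean over probes and -0.33 to 0.064 without 1 array (0.064 without replicate 2 of the control diet). For genotype on Wy-14643, Cy5 signal alone gave -0.10 for Dkc1, 0.0066 for Utp15, -0.077 for Rcl1, -0.10 for Nob1 and -0.86 for Nle1. Dkc1 was also -0.050 with the deposited log ratios, -0.24 with the mean over probes, -0.032 with the slide block, -0.024 without slide 1 and -0.075 with the replicate block; Nob1 was -0.080 without slide 1 and -0.027 with array weights. Without 1 array, Dkc1 ranged from -0.16 to 0.15, Utp15 from -0.070 to 0.062 and Nob1 from -0.083 to 0.11. Dim spots limit Imp4, which was not well above background on 4 of 8 MycF/F,ERT2-Cre arrays.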
